A study of Homo sapiens with 9 samples.

Results

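The comparison of A549 cells carrying the first hairpin against LITATS1 (shLITATS1-1) with A549 cells carrying the control hairpin (shNT) was described across all expressed genes, with emphasis on gene families other than TGF-β targets, matrix and cell-cycle genes. The libraries were chosen by their labels, 3 per group, so 6 of the 9 libraries of the series enter the contrast, and of the 60676 genes listed 15500 passed the filter on low counts and were tested. A549 is an established human lung adenocarcinoma line of epithelial origin. Both groups were transduced overnight with a lentiviral hairpin construct, cultured for 2 days, selected with puromycin at 1 ng/mL and harvested after another 3 days, so transduction and selection are shared by the controls. The remaining 3 libraries carried a second hairpin against LITATS1, shLITATS1-2, and served for a direct comparison of the hairpins. Nothing in the labels says whether the libraries of a group came from separate transductions, so p-values speak only of the spread among them.

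LITATS1 is a long noncoding RNA that is known as a brake on signalling by transforming growth factor beta (TGF-β). TGF-β ligands signal through receptor kinases and SMAD transcription factors, and in epithelial cells of the lung this pathway restrains growth and induces matrix, contractile and adhesion genes. A short hairpin RNA is processed into a small RNA that guides degradation of the matching transcript, and the study used 2 such hairpins.

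Each library held 19610514 to 19989652 fragments assigned to genes. Levels are counts per library size scaled by TMM factors (CPM), given per library or as mean ± SD (n = 3). A gene is called changed at a p under 0.05 from the quasi-likelihood test of edgeR, after Benjamini-Hochberg adjustment over the 15500 genes. Beyond counting noise, replicates varied little, with a common biological coefficient of variation of 2.71% in edgeR. Even minor shifts were callable in genes with many fragments. Fragments from the mitochondrial genome made up 12.2% ± 0.224 of gene fragments with shNT and 10.2% ± 0.123 with shLITATS1-1, and unaligned fragments 3.79% ± 0.116 and 5.56% ± 0.0181 of all fragments. The part of these shifts in the results below was not tested. In bulk RNA, fewer cells of a type and less RNA per cell cannot be told apart.

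LITATS1 itself had 14, 14.5 and 16.8 CPM with shNT and 3.78, 3.21 and 2.999 CPM with shLITATS1-1. The shLITATS1-1 libraries all lay below the shNT libraries, and the log2 fold change was -2.18 (SE 0.113) with adjusted p = 1.05e-27 in edgeR. With shLITATS1-2 the libraries held 3.33, 3.03 and 2.69 CPM, and the difference between the hairpins, 0.14 (SE 0.156), did not pass the test.

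The first hairpin was accompanied by changes in most expressed genes, and most of these changes were small. Of the 15500 genes tested, 9449 (61%) were called, 4728 (30.5%) higher and 4721 (30.5%) lower, and the median size of a called change was 0.41 on the log2 scale. The share changed by at least 2-fold was 8.68%, made up of 951 genes (6.14%) that rose and 394 (2.54%) that fell. The 3 libraries of one group all lay above or all below those of the other for 64.2% of the genes tested. Among the 2041 genes over 100 CPM, 80.5% were called and 3.48% moved by at least 2-fold, whereas among the 1963 genes under 1 CPM 29.3% were called and 22.3% moved by at least 2-fold. Protein-coding genes were called in 65.4% of 13068 cases and long noncoding RNA genes in 39.7% of 1573. The plot of change against level shows the called genes in both directions at all levels.

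**Figure D1:**
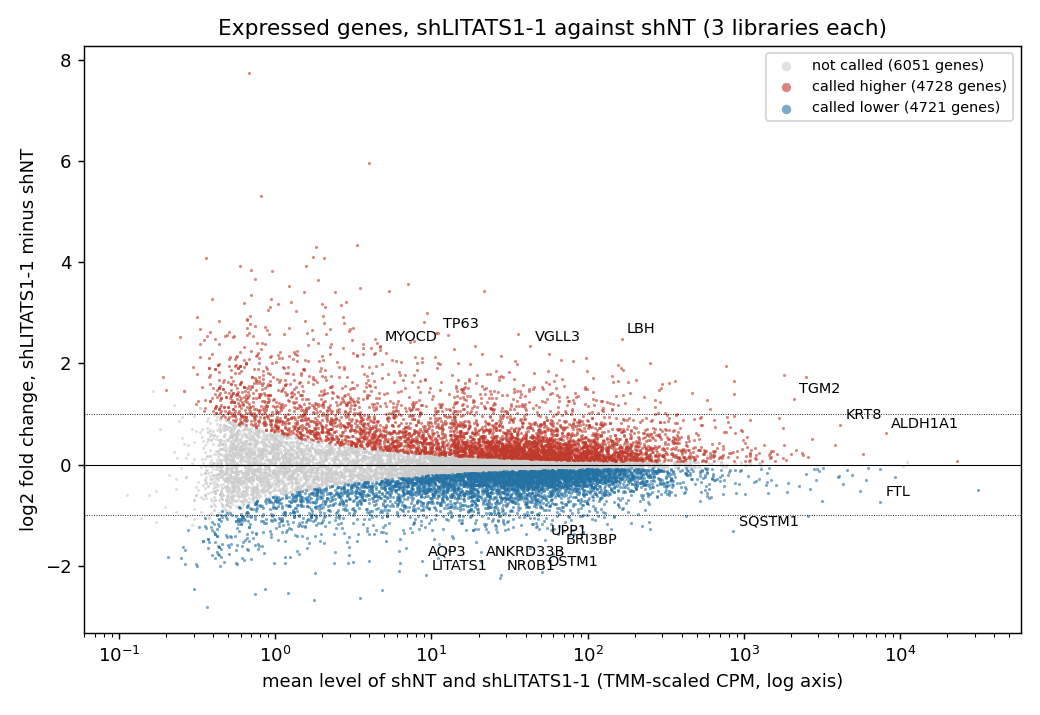
Each point is 1 of the 15500 genes tested, placed by its mean level in the shNT and shLITATS1-1 libraries (TMM-scaled CPM, log axis) and its log2 fold change. Red points are the 4728 genes called higher and blue points the 4721 called lower, dotted lines mark a 2-fold change, and the points beyond them lie mostly above the upper line (951 genes against 394).

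The largest increases were taken among genes of at least 1 CPM with shNT that had a symbol and were not named in an earlier account. TP63, the p53-family factor that specifies basal epithelium, had 3.07, 2.71 and 3.59 CPM with shNT and 16.9, 19.5 and 20.3 CPM with shLITATS1-1. LBH, a transcriptional cofactor, had 47.7, 50.5 and 51 CPM with shNT and 281, 282 and 276 CPM with shLITATS1-1. VGLL3, a cofactor of TEAD factors, had 13.4, 14.3 and 14.3 CPM with shNT and 67.6, 73.5 and 72.1 CPM with shLITATS1-1. For each of the 3 genes the shLITATS1-1 libraries lay above all shNT libraries. The log2 fold changes were 2.60 (SE 0.109), 2.49 (SE 0.0377) and 2.35 (SE 0.0598). In edgeR their adjusted p-values were 9.27e-33, 3.08e-59 and 1.01e-45. With shLITATS1-2, measured against the same shNT libraries, the corresponding log2 fold changes were 1.32, 1.15 and 0.71. In the direct comparison TP63 was 1.28 (SE 0.0888), LBH 1.35 (SE 0.0338) and VGLL3 1.64 (SE 0.054) higher with the first hairpin than with the second on the log2 scale, and each difference passed.

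RHOU, a small GTPase, rose from 3.7 ± 0.238 to 21.9 ± 1.21 CPM (SD, n = 3), a log2 fold change of 2.56 (SE 0.0978). MYL9, a regulatory myosin light chain, rose from 2.29 ± 0.279 to 12.2 ± 0.171 CPM, and MYOCD, the coactivator of serum response factor in smooth muscle, from 1.54 ± 0.594 to 7.78 ± 0.89 CPM. The collagen-binding integrin gene ITGA11 rose from 6.21 ± 0.606 to 31.7 ± 1.58 CPM, ABI3BP, which encodes a matrix protein, from 1.6 ± 0.379 to 7.71 ± 0.257 CPM, and FLRT2, which encodes a membrane protein that binds guidance receptors, from 2.99 ± 0.544 to 18.3 ± 1.28 CPM. MAP2, a microtubule-associated protein of neurons, rose from 1.81 ± 0.206 to 8.43 ± 0.77 CPM, and DOCK2, an exchange factor for Rac known from blood cells, from 1.42 ± 0.364 to 7.5 ± 0.324 CPM. RAET1G, which encodes a ligand of the activating receptor NKG2D, had the largest log2 fold change of this group, 2.83 (SE 0.128). LDLRAD4, a membrane protein that restrains SMAD signalling, rose by 2.30 and PID1, an adaptor that binds lipoprotein receptors, by 2.29.

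TNFAIP6 encodes a secreted hyaluronan-binding protein. Its libraries held 1.02, 1.38 and 1.23 CPM with shNT and 6.3, 5.89 and 5.89 CPM with shLITATS1-1, and 0.869, 0.866 and 1.2 CPM with shLITATS1-2. The shLITATS1-1 libraries stood above the other 6, which overlapped each other. The log2 fold change was 2.31 (SE 0.174) against shNT and 2.62 (SE 0.18) against the second hairpin (adjusted p = 2.58e-19 and 2.93e-21 in edgeR), while that of shLITATS1-2 against shNT, -0.31, did not pass.

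**Figure D2:**
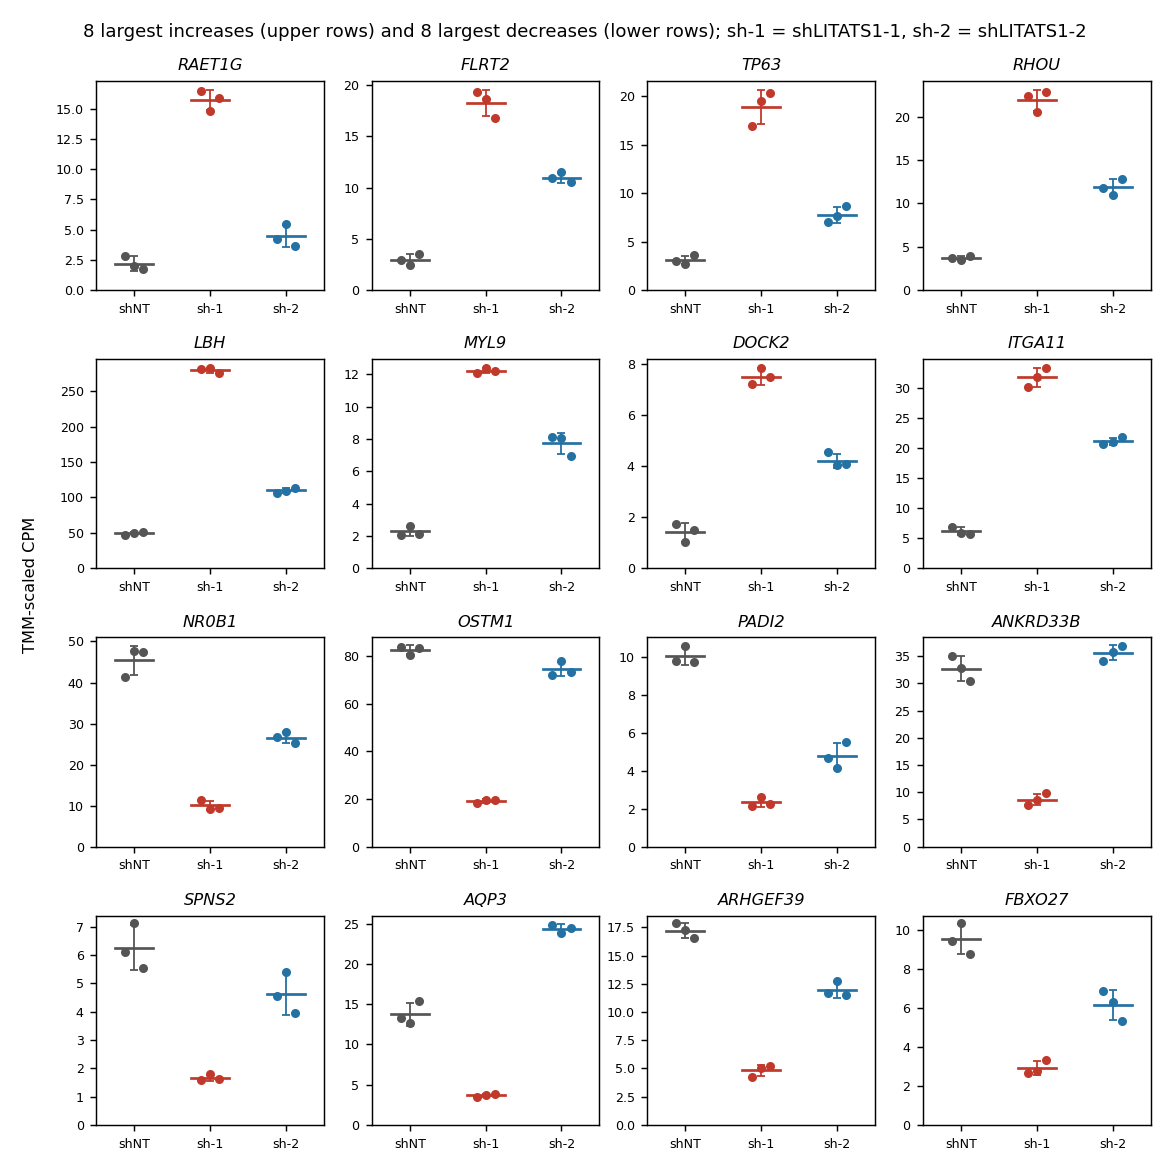
TMM-scaled CPM (linear axes from 0) of the 8 largest increases and 8 largest decreases in each library of shNT, shLITATS1-1 and shLITATS1-2. The ranking left out genes named in an earlier account and genes without a symbol. It also left out those under 1 CPM (increases) or 5 CPM (decreases) with shNT. Points are libraries, horizontal lines are means and bars are SD (n = 3). The red points of shLITATS1-1 do not overlap the grey points of shNT in any panel, and for OSTM1, ANKRD33B and AQP3 the blue points of shLITATS1-2 lie near or above those of shNT.

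The promoter of TNFAIP6 holds the letters TGANTCA, where N is any base. They are a looser form of the consensus of AP-1, a factor family that responds to growth and stress signals. Among the 11290 tested genes with a RefSeq promoter, 4.1% had a match on either strand in the 250 bases before the start. The share was 8.4% (54 of 643) in the genes that rose by at least 2-fold and 3.56% (9 of 253) in those that fell as much. The shares for the letters TATAAA of the TATA box were 5.52%, 12% and 8.7%. The letters TTTGGCGC, a form of the E2F site, were in 0.833%, 0.156% and 1.58%, and the xenobiotic response core GCGTGC was in 17.5%, 8.55% and 16.2%. In the same order (all promoters, 2-fold higher, 2-fold lower), the antioxidant response letters TGACNNNGC were in 12.2%, 10.9% and 12.3%, and the E-box CACGTG was in 8.73%, 5.91% and 9.49%. The cyclic AMP response letters TGACGTCA were in 2.88%, 1.56% and 4.35%, and CCAAT was in 34.5%, 33.1% and 39.5%. The TEAD core GGAATG was in 9.48%, 11.8% and 6.72%, and its longer form GGAATGT, which contains it, in 1.86%, 3.11% and 0.395%. A short form of the interferon response element was in 2.29%, 5.29% and 2.37%, and TGCATGC in 1.52%, 1.4% and 1.98%. CAGACAGAC, GTCTAGAC and 1 form of the CArG box were in 28, 19 and 4 of all these promoters. These 15 motifs were searched on both strands after the fold changes were known, and the shares are descriptions with no test. Of the 109 named genes that rose by at least 2-fold, 88 had a RefSeq promoter, and a TGANTCA match was counted in 9 of these. Some of the 88 were left out of this count and of the choice of sequences, so 9 is a minimum. The sequences of the 4 with the largest increases among the 9 counted are shown because they place the match relative to the RefSeq start used. A single promoter per gene symbol was kept, and other starts of a gene were not searched. For KCNJ15 and KCNJ16 the start used lies downstream of the gene start in GENCODE 29 (38155549 on chromosome 21 and 70053429 on chromosome 17). Which start A549 cells use was not tested. They are the 250 bases before the RefSeq start on GRCh38.p14, 5′ to 3′ on the gene's strand, with the match in capitals.
TNFSF14: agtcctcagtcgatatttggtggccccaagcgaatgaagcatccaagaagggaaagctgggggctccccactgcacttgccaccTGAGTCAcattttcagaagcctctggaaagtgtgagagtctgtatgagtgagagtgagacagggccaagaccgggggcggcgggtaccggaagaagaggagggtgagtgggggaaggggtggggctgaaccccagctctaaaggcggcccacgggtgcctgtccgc
KCNJ15: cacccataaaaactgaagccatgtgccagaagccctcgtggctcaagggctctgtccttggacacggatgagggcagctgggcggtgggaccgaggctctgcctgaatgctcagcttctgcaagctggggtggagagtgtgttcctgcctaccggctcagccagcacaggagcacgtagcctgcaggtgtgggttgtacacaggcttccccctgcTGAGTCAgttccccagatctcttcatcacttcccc
TNFAIP6: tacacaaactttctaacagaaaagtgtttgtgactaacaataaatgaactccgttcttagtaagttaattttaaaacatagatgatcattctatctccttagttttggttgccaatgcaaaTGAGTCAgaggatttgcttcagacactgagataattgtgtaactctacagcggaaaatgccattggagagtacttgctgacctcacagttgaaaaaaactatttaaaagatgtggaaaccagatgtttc
KCNJ16: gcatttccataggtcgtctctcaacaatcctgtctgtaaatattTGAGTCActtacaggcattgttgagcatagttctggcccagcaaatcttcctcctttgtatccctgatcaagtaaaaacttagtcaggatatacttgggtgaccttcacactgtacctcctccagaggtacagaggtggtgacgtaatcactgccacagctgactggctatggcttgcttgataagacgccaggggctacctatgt
The regions are chr19:6670161-6670410 on the minus strand for TNFSF14, chr21:38272258-38272507 on the plus strand for KCNJ15, chr2:151357342-151357591 on the plus strand for TNFAIP6 and chr17:70074975-70075224 on the plus strand for KCNJ16. The match begins 166, 35, 129 and 206 bases before the start, in that order. A match is a description of letters and not of a bound site.

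The largest decreases were taken from a level of at least 5 CPM with shNT, again without genes named in an earlier account. Among these decreases was NR0B1, which encodes the orphan nuclear receptor DAX1, a repressor of other nuclear receptors. Its libraries held 41.3, 47.6 and 47.4 CPM with shNT and 11.4, 9.26 and 9.47 CPM with shLITATS1-1, a log2 fold change of -2.18 (SE 0.072) with adjusted p = 5.99e-38 in edgeR. OSTM1, a subunit of the lysosomal chloride transporter, had 83.9, 80.6 and 83.4 CPM with shNT and 18.3, 19.4 and 19.6 CPM with shLITATS1-1, and 72.2, 77.7 and 73.3 CPM with shLITATS1-2. ANKRD33B had 35, 32.8 and 30.4 CPM with shNT and 7.67, 8.53 and 9.79 CPM with shLITATS1-1, and 34.1, 35.8 and 36.8 CPM with shLITATS1-2. The shLITATS1-1 libraries of both genes lay below all others, with log2 fold changes of -2.11 (SE 0.052) and -1.92 (SE 0.0767) against shNT and of -1.96 (SE 0.0524) and -2.04 (SE 0.075) against the second hairpin. The change with shLITATS1-2 against shNT was -0.15 for OSTM1, a call, and 0.12 for ANKRD33B, which did not pass.

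SPNS2, the exporter of sphingosine 1-phosphate, fell from 6.25 ± 0.793 to 1.67 ± 0.111 CPM, and UPP1, a uridine phosphorylase, from 78.7 ± 3.11 to 28.1 ± 1.26 CPM. ADORA2B, an adenosine receptor that raises cyclic AMP, fell from 19.8 ± 1.84 to 6.19 ± 0.969 CPM, and PADI2, which converts arginine to citrulline in proteins, from 10.1 ± 0.49 to 2.35 ± 0.25 CPM. OSGIN1, a gene of the response to oxidative stress, fell by 1.64 on the log2 scale, PIF1, a DNA helicase, by 1.65, and FBXO27, a glycoprotein-binding subunit of ubiquitin ligases, by 1.71. The falls of TMEM151A (-1.51), BRI3BP (-1.68), ARHGEF39 (-1.84) and LRATD2 (-1.56) were of similar size. Exons of BRI3BP, ARHGEF39 and LRATD2 overlap those of other genes over 29.7%, 27% and 21.5% of their length in GENCODE 29, and their counts are uncertain because the sources used here do not give the strand setting of the counting.

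By fragments gained rather than by fold, TGM2, a protein-crosslinking transglutaminase, rose from 1204 ± 27.2 to 2977 ± 62.7 CPM, and ALDH1A1, a retinaldehyde dehydrogenase that A549 cells hold in large amount, from 6351 ± 111 to 9809 ± 88.2 CPM. The keratin genes KRT8 and KRT18, partners in the filaments of simple epithelia, rose from 3032 ± 70.9 to 5231 ± 48.5 CPM and from 1150.1 ± 30.3 to 2179.9 ± 35.5 CPM; they are neighbours on opposite strands with shared exon bases. FLNA, which crosslinks actin, rose from 2252 ± 82.2 to 3206 ± 79.7 CPM, and ANXA2, a membrane-binding annexin, from 3315 ± 40.5 to 4319 ± 62.8 CPM. The second hairpin had ALDH1A1 at 3517, KRT8 at 2754, KRT18 at 961 and TGM2 at 1003 CPM, below shNT in each case. FLNA at 3015 and ANXA2 at 3898 CPM were called higher than shNT with the second hairpin too (0.42 and 0.23 on the log2 scale). The direct differences were 1.48 (SE 0.0267) for ALDH1A1, 0.93 (SE 0.0271) for KRT8, 1.18 (SE 0.033) for KRT18, 1.57 (SE 0.0282) for TGM2, 0.088 (SE 0.0281) for FLNA and 0.15 (SE 0.0264) for ANXA2.

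Among the genes that lost most fragments, the mitochondrial ribosomal RNA genes MT-RNR2 and MT-RNR1 fell from 36783 ± 1487 to 26148 ± 181 CPM and from 3422 ± 105 to 1702 ± 28.6 CPM, whereas MT-CO1, a subunit of cytochrome oxidase, had a log2 fold change of 0.067 (SE 0.0289). HSP90AA1, the inducible cytosolic HSP90, fell from 3953 ± 125 to 2412 ± 10.5 CPM, and HSPA8, its constitutive HSP70 partner, from 3075 ± 29.97 to 2219 ± 7.69 CPM. FTL, the ferritin light chain, fell from 9238 ± 407 to 5566 ± 142 CPM, and SQSTM1, the autophagy receptor p62, from 1219 ± 30.6 to 495 ± 1.3 CPM, with 22% of its exon bases shared with other genes.

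Some genes under 1 CPM with shNT had larger fold changes, and they are named here after their values were seen. R3HDML had no fragment in any shNT library and 1.68, 0.632 and 1.74 CPM with shLITATS1-1. WNT7A, a Wnt ligand, was at 0.0341 CPM with shNT and 1.6 CPM with shLITATS1-1. IL33, an alarmin cytokine, went from 0.188 to 3.31 CPM. Such levels rest on few fragments.

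The labelled cell type was checked with a list of 16 genes of A549 and lung epithelial identity, all of which were detected in every group. Their summed level was 25487 to 26364 CPM with shNT and 30221 to 30857 CPM with shLITATS1-1, and 8 of the 16 rose and 5 fell. FGB, a fibrinogen chain, rose by 0.77, and the reductase genes NQO1 and AKR1C1 fell by 0.54 and 0.57 on the log2 scale. Of 17 surfactant and alveolar genes 6 were tested and 5 rose, among them CAV1, a caveolar protein, at 0.95 and LPCAT1, a surfactant phospholipid enzyme, at 0.53. FGB and LPCAT1 were called lower than shNT with shLITATS1-2 (-0.26 and -0.29). NKX2-1, HOPX and AQP5 had no fragment with shNT or shLITATS1-1.

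Markers of cells that a culture of A549 should not hold were low. The 16 haematopoietic markers summed to 6.88 to 7.62 CPM with shNT and 5.99 to 6.95 CPM with shLITATS1-1, with CD3E and MS4A1 among the markers at 0 in both groups, and 2 were tested (CD14 higher, ITGAM lower). The 10 endothelial markers summed to 0.513 to 1.02 and 0.893 to 1.26 CPM, with CLEC14A at 0 in both groups. The 10 fibroblast and mural markers summed to 4.65 to 4.91 and 7.74 to 8.67 CPM. COL1A2 and DCN were at 0 in every shNT library, 2 of the 5 tested genes rose and 1 fell, and LUM, a matrix proteoglycan, went from 0.461 ± 0.103 to 3.59 ± 0.273 CPM. The 15 cancer-testis antigens summed to 148 to 158 and 166 to 175 CPM, mostly PRAME.

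The 18 neural and neuroendocrine markers summed to 812 to 878 CPM with shNT and 786 to 810 CPM with shLITATS1-1. Most of this was UCHL1, at 566 to 621 CPM with shNT and 552 to 576 CPM with shLITATS1-1. Of 12 tested, 5 rose and 4 fell. SYP, a synaptic vesicle protein, fell from 4.99 ± 1.31 to 1.31 ± 0.45 CPM, CHGB, a granin of secretory granules, from 12.8 ± 0.928 to 5.42 ± 0.723 CPM, and ENO2, neuronal enolase, from 144 ± 5.46 to 79.5 ± 1.36 CPM. CHGB was called higher than shNT with shLITATS1-2 (0.39). NEFL, a neurofilament, rose from 17 ± 0.833 to 31.6 ± 0.656 CPM, and MAP2 from 1.81 ± 0.206 to 8.43 ± 0.77 CPM. SNAP25 held 64.2 to 65.1 CPM with shNT and 95.9 to 97.4 CPM with shLITATS1-1.

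A total of 92 gene lists was counted, and 51 were selected: in each block of related lists the 3 with the highest share of 2-fold changes and the 1 with the lowest, plus the cell identity lists. That share chose them and is not evidence about them. Ties in the share were settled by the order of list names, so a list left out can hold the same lowest value. Counts cover the members that passed the filter on low counts, for example 8 of 19 mucin genes and 26 of 63 genes of serine proteases and inhibitors. Each count of shLITATS1-1 against shNT is to be read against the background of 30.5% of tested genes called in each direction. The median log2 fold change over all tested genes was -0.0070. Direct counts between the hairpins are to be read against 30.2% of tested genes higher and 30.7% lower with shLITATS1-1. The share of all tested genes called with shLITATS1-2 against shNT was not counted, so counts of that contrast have no background here. The strip plot of the lists shows their members.

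**Figure D3:**
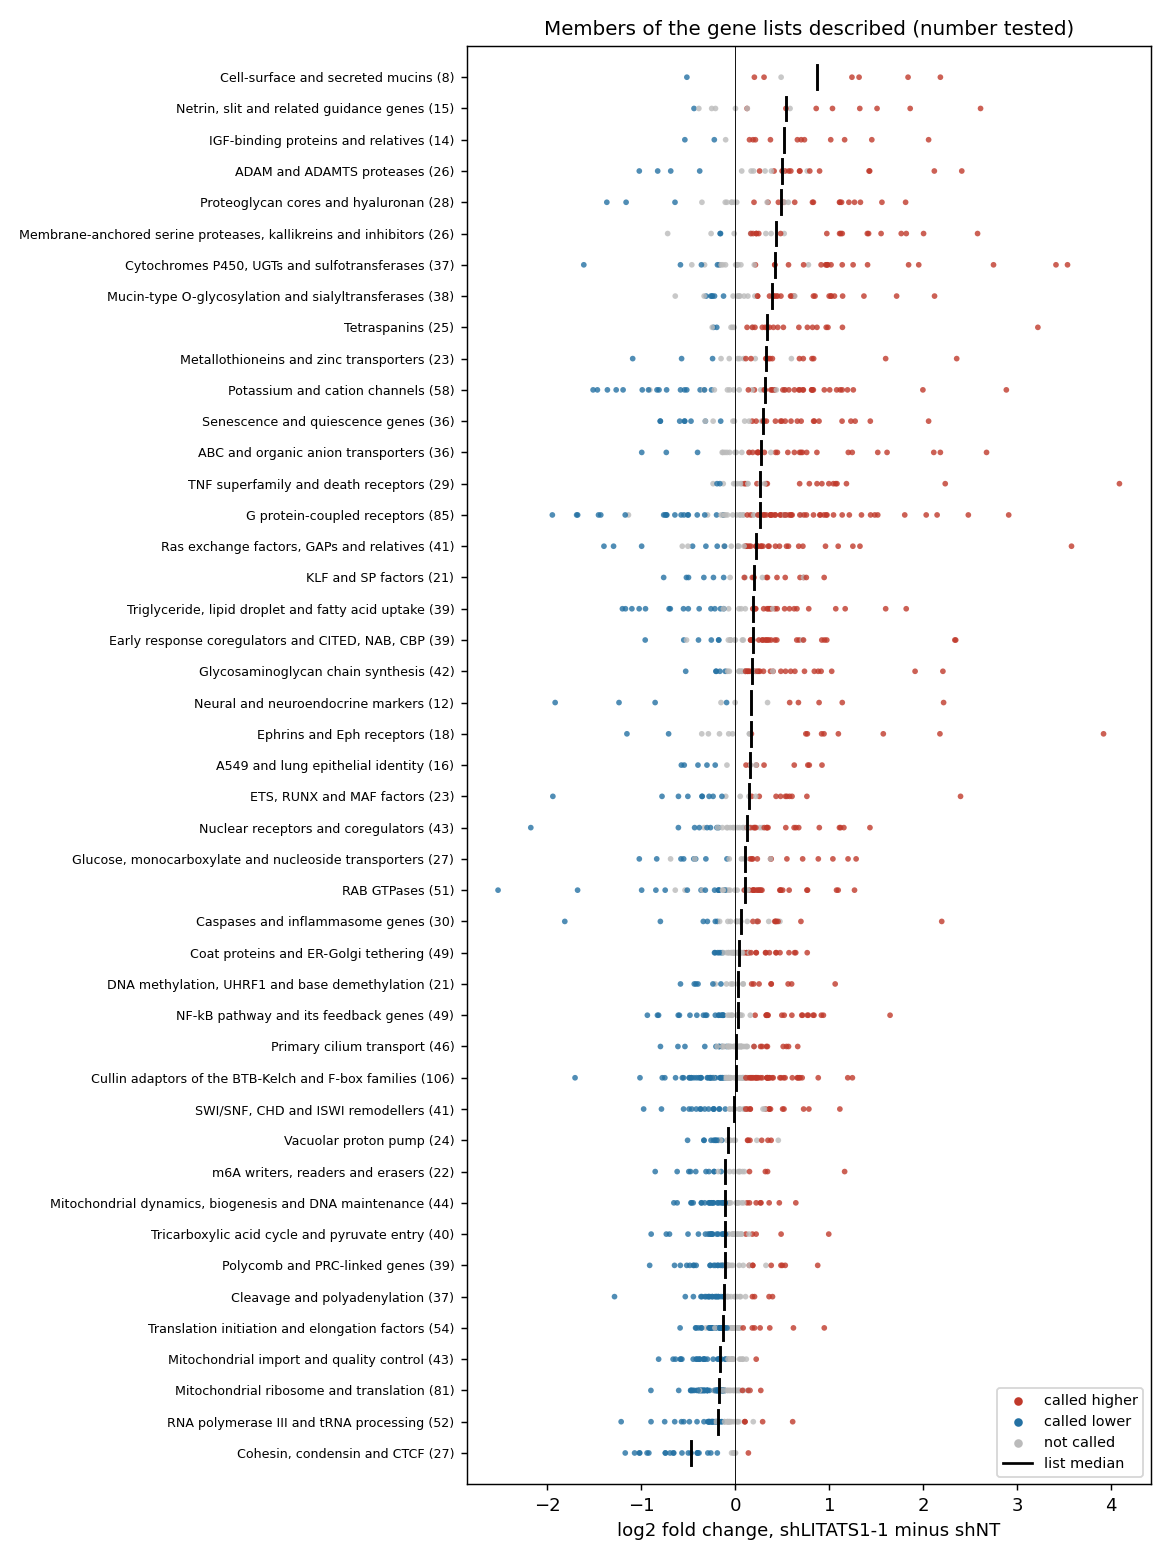
Log2 fold change of shLITATS1-1 against shNT for each tested member of the described lists with at least 8 tested genes, ordered by list median (black bar). Red members were called higher, blue lower and grey not called. The mucin list has the highest median (0.86) and the cohesin and condensin list the lowest (-0.47).

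Among mucins and their partners, of 8 tested genes, 6 rose, 1 fell and 1 missed the threshold; their median change on the log2 scale was 0.86. The membrane mucin MUC13 had 14.5, 13.8 and 16 CPM with shNT and 35.9, 37.4 and 37.1 CPM with shLITATS1-1. The groups did not overlap, with a log2 fold change of 1.32 (SE 0.0646) and adjusted p = 4.93e-29 in edgeR. TFF1, a trefoil peptide secreted with mucins, rose from 2.7 ± 0.731 to 9.66 ± 0.675 CPM, and the gel-forming mucin MUC5AC fell from 18.3 ± 1.04 to 12.8 ± 0.481 CPM. MUC5AC moved the other way with shLITATS1-2 (0.54), a direct difference of -1.05 (SE 0.0708).

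For the enzymes that build mucin-type sugars, of 38 tested genes, 21 rose, 6 fell and 11 missed the threshold, median 0.39. GALNT1, which starts O-glycan chains, rose from 168 ± 5.09 to 371 ± 3.01 CPM, GALNT16 from 2.24 ± 0.377 to 7.36 ± 0.703 CPM, GCNT2, a branching enzyme, from 19.6 ± 0.686 to 40.7 ± 3.29 CPM and ST6GAL2, a sialyltransferase, from 77.4 ± 2.34 to 157 ± 6.67 CPM. Among these enzymes 21 members were higher and 11 lower with shLITATS1-1 than with shLITATS1-2, against a background of 30.2% and 30.7% of all tested genes. Among proteoglycan cores and hyaluronan genes, of 28 tested genes, 15 rose, 3 fell and 10 missed the threshold, median 0.49. SPOCK1, a testican, rose from 20.2 ± 1.52 to 70.8 ± 1.02 CPM, SDC4, a syndecan, from 42.1 ± 1.77 to 106 ± 1.13 CPM and HSPG2, perlecan, from 87.1 ± 5.999 to 201 ± 7.75 CPM, while HMMR, a hyaluronan receptor also known as a mitotic spindle protein, fell from 70.2 ± 3.85 to 31.3 ± 1.42 CPM. In glycosaminoglycan chain synthesis, of 42 tested genes, 25 rose, 5 fell and 12 missed the threshold. XYLT1, which attaches the first sugar of the chain, rose from 1.55 ± 0.284 to 7.2 ± 0.273 CPM, and the chondroitin sulfotransferases CHST3 and CHST11 rose from 62.1 ± 3.21 to 114 ± 3.56 CPM and from 61.4 ± 2.46 to 110.03 ± 3.88 CPM. With shLITATS1-2 against the same controls, 6 rose and 0 fell of the mucin list, and 16 rose and 10 fell of the O-glycan enzymes. Of the proteoglycan list 12 rose and 6 fell, and in chain synthesis 23 rose and 10 fell. These shLITATS1-2 counts have no background share here. The lists of secretory pathway and glycan genes that the selection left out are given after their values were seen. Of 44 tested genes, 15 rose, 17 fell and 12 missed the threshold in N-glycan assembly (median -0.084), and of 57 tested genes, 18 rose, 11 fell and 28 missed the threshold among SNAREs and the exocyst (median 0.047).

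Among membrane-anchored serine proteases, kallikreins and inhibitors, of 26 tested genes, 17 rose, 2 fell and 7 missed the threshold, median 0.43. SERPINB7, an epithelial serpin, had 6.55, 4.7 and 6.42 CPM with shNT and 22.9, 23.1 and 24.9 CPM with shLITATS1-1, and 5.16, 6.2 and 5.9 CPM with shLITATS1-2. The first hairpin's libraries lay above the other 6, and its log2 fold change was 2.00 (SE 0.091) against shNT and 2.04 (SE 0.08999) against the second hairpin. PI3, elafin, an inhibitor of elastase, rose from 2.82 ± 0.234 to 7.54 ± 0.316 CPM, and PRSS3, a trypsin, from 2.07 ± 0.367 to 6.07 ± 0.737 CPM. SPINK6 (2.58), SERPINB4 (1.82) and CST1 (1.77) rose from under 1 CPM, and SERPINB4 has a near-identical copy, which makes its counts uncertain. Among ADAM and ADAMTS proteases, of 26 tested genes, 14 rose, 4 fell and 8 missed the threshold, median 0.50. ADAM19 rose from 36.5 ± 1.77 to 158 ± 7.11 CPM and ADAMTS15 from 8.5 ± 0.343 to 22.9 ± 0.621 CPM. ADAM17, the sheddase of TNF and EGF-family ligands, fell from 63.6 ± 4.05 to 35.9 ± 1.24 CPM. With shLITATS1-2, ADAM17 was called higher than shNT (0.22), a direct difference of -1.05 (SE 0.049).

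Insulin-like growth factor binding proteins control how much IGF reaches its receptor. In the list of these proteins and relatives, of 14 tested genes, 11 rose, 2 fell and 1 missed the threshold, median 0.52. IGFBP7 had 33.6, 29.9 and 29.8 CPM with shNT and 129, 127 and 132 CPM with shLITATS1-1. No libraries overlapped, and the log2 fold change was 2.06 (SE 0.0479) (adjusted p = 8.53e-47 in edgeR) against 0.25 with shLITATS1-2. IGFBP6 rose from 22.6 ± 0.802 to 62 ± 1.49 CPM, PAPPA, a protease that cleaves IGF-binding proteins (21.2% of its exon bases are shared with an antisense gene, so its counts are uncertain), from 207 ± 10.5 to 418 ± 17.5 CPM, and IGFBP3 from 120.5 ± 4.57 to 196 ± 1.41 CPM. IGFBP3 was lower with shLITATS1-2 than with shNT (-0.34). The list also holds IGF2BP3, which binds messenger RNA and not IGF, and which rose by 1.16.

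Among ephrins and Eph receptors, of 18 tested genes, 9 rose, 2 fell and 7 missed the threshold. The ligand gene EFNA1 rose from 19.5 ± 1.36 to 58 ± 1.01 CPM. The receptor genes EPHA4 and EPHB1 rose by 2.18 and 3.92 from under 1 CPM, while EPHB3 fell by 1.15. EPHB3 was called higher than shNT with shLITATS1-2 (0.59). In the netrin and slit list, of 15 tested genes, 8 rose, 1 fell and 6 missed the threshold. SLIT3, a secreted ligand, rose from 42.1 ± 1.09 to 86.1 ± 0.712 CPM and ROBO1, a slit receptor, from 63.6 ± 0.98 to 115 ± 3.5 CPM. Among tetraspanins, which organise membrane proteins, of 25 tested genes, 18 rose, 2 fell and 5 missed the threshold, with TSPAN6 at 0.82, TSPAN5 at 0.99 and CD82 at 1.14.

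Calls among signalling receptors went both ways, with more members higher than lower in the lists of this paragraph. For G protein-coupled receptors, of 85 tested genes, 44 rose, 19 fell and 22 missed the threshold. By at least 2-fold 12 rose and 6 fell, where the shares of all tested genes were 6.14% and 2.54%. The list was selected by its share of 2-fold changes, so these counts are not evidence about it. LPAR5, a receptor for lysophosphatidic acid, rose from 0.632 ± 0.107 to 4.79 ± 0.224 CPM, CMKLR2, a chemerin receptor, from 0.529 ± 0.119 to 2.98 ± 0.45 CPM, and GPR162 fell from 1.84 ± 0.137 to 0.473 ± 0.139 CPM. In the TNF superfamily and death receptors, of 29 tested genes, 16 rose, 2 fell and 11 missed the threshold, median 0.27. TNFSF14, the ligand LIGHT, had 0.154, 0.153 and 0.359 CPM with shNT and 3.31, 3.58 and 4.74 CPM with shLITATS1-1, and 0.145, 0.289 and 0.24 CPM with shLITATS1-2. The shLITATS1-1 libraries stood above the other 6, with a log2 fold change of 4.09 (SE 0.293) against shNT and 4.07 (SE 0.287) against the second hairpin. TNFSF10, the death ligand TRAIL, rose from 0.461 ± 0.186 to 2.19 ± 0.408 CPM, and TNFRSF10D, a decoy receptor of TRAIL, from 45.1 ± 1.82 to 102 ± 3.22 CPM.

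The NF-kB pathway and its feedback genes were split. Of 49 tested genes, 18 rose, 18 fell and 13 missed the threshold. The nuclear regulator NFKBIZ rose from 8.45 ± 0.337 to 26.5 ± 0.822 CPM and the feedback inhibitor TNFAIP3 from 13.9 ± 1.9 to 24.9 ± 1.53 CPM. NFKB2, the subunit of the noncanonical branch, fell from 164 ± 10.5 to 85.8 ± 2.43 CPM, and MAP3K14, the kinase of that branch, from 87.5 ± 4.54 to 49.3 ± 1.56 CPM.

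In the list of Ras exchange factors and GAPs, of 41 tested genes, 26 rose, 7 fell and 8 missed the threshold. RAP1GAP, which switches off RAP1, had 107, 117 and 117 CPM with shNT and 45.2, 45 and 48.5 CPM with shLITATS1-1, and 149, 151 and 149 CPM with shLITATS1-2. The 3 groups did not overlap, and the log2 fold change was -1.30 (SE 0.0427) with shLITATS1-1 and 0.40 with shLITATS1-2. RASGRP1, an exchange factor for Ras, rose from 2.65 ± 0.344 to 6.64 ± 0.159 CPM. Among RAB GTPases, regulators of vesicle traffic, of 51 tested genes, 22 rose, 14 fell and 15 missed the threshold. RAB15 rose from 44.2 ± 0.443 to 106 ± 4.83 CPM and RAB3B from 79.4 ± 6.13 to 168 ± 8.37 CPM, and RAB39B fell from 2.05 ± 0.186 to 0.351 ± 0.11 CPM.

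Ion channels and transporters were changed in both directions. Of 58 tested genes, 29 rose, 16 fell and 13 missed the threshold in the list of potassium and cation channels. KCNJ16 and KCNJ15, inward rectifiers, rose by 2.00 and 2.88, and KCNJ2, another, fell by 1.51. KCNK5, a background potassium channel, fell from 11.8 ± 0.51 to 4.91 ± 0.066 CPM. Among ABC and organic anion transporters, of 36 tested genes, 23 rose, 3 fell and 10 missed the threshold, median 0.28. The cholesterol exporters ABCA1 and ABCG1 rose from 32.6 ± 2.84 to 93.1 ± 4.71 CPM and from 4.57 ± 0.44 to 10.5 ± 0.622 CPM. In this list 23 members were higher and 8 lower with shLITATS1-1 than with shLITATS1-2. For glucose, monocarboxylate and nucleoside transporters, of 27 tested genes, 12 rose, 8 fell and 7 missed the threshold. SLC16A4, a monocarboxylate transporter family member, rose from 70.3 ± 3.13 to 144 ± 5.44 CPM, SLC2A13, a myo-inositol transporter, from 24 ± 1.74 to 55 ± 3.58 CPM, and SLC29A2, a nucleoside transporter, fell from 20.2 ± 2.56 to 9.94 ± 0.343 CPM.

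Among cytochromes P450, UGTs and sulfotransferases, of 37 tested genes, 19 rose, 5 fell and 13 missed the threshold, median 0.42, and 22 members were higher and 5 lower with shLITATS1-1 than with shLITATS1-2. UGT enzymes attach glucuronic acid to hormones, bilirubin and drugs. UGT1A7 had 11.2, 11.9 and 10.8 CPM with shNT and 40.8, 38.5 and 42.5 CPM with shLITATS1-1, and 8.44, 9.23 and 7.97 CPM with shLITATS1-2. Its first-hairpin libraries stood above the other 6, with log2 fold changes of 1.84 (SE 0.0683) and, with the second hairpin, -0.40. UGT1A1 rose from 1.47 ± 0.26 to 5.7 ± 0.444 CPM, UGT2B7 from 0.188 ± 0.0785 to 2.24 ± 0.21 CPM and UGT2B15 from 0.256 ± 0.0883 to 2.79 ± 0.395 CPM, and CYP1A1, the aryl hydrocarbon-induced oxidase, fell from 1.246 ± 0.127 to 0.403 ± 0.151 CPM. The UGT1A genes share exons (49.9% of UGT1A1 and 40.6% of UGT1A7 overlap other genes) and the UGT2B genes are close copies, so the split between members is uncertain.

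Lipid storage genes were divided. In the list of triglyceride, lipid droplet and fatty acid uptake, of 39 tested genes, 19 rose, 14 fell and 6 missed the threshold, with 4 at least 2-fold each way. PLIN2, the coat protein of lipid droplets, had 89.8, 94.7 and 90.1 CPM with shNT and 38.6, 40.3 and 40.6 CPM with shLITATS1-1. The groups were separate, at a log2 fold change of -1.20 (SE 0.0444) (adjusted p = 4.29e-36 in edgeR). HILPDA, an inhibitor of droplet lipolysis, fell from 13.5 ± 0.743 to 6.28 ± 1.1 CPM and LIPE, hormone-sensitive lipase, from 3.52 ± 0.468 to 1.56 ± 0.219 CPM. LIPH, a phosphatidic acid lipase, rose from 24.2 ± 0.867 to 54.4 ± 2.5 CPM and ANGPTL4, an inhibitor of lipoprotein lipase, from 17.9 ± 0.52 to 37.5 ± 2.4 CPM. Among metallothioneins and zinc transporters, of 23 tested genes, 13 rose, 3 fell and 7 missed the threshold. MT2A, a metal-binding protein, rose from 147 ± 6.99 to 447 ± 11 CPM, and the zinc importers SLC39A10 and SLC39A8 rose from 100.2 ± 5.58 to 179 ± 2.84 CPM and from 58.5 ± 1.49 to 103 ± 3.64 CPM. Metallothionein genes are close copies, which limits the assignment of fragments.

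Transcription factor lists showed calls in both directions. Of 43 tested genes, 18 rose, 8 fell and 17 missed the threshold among nuclear receptors and coregulators. PPARA, a regulator of fatty acid use, rose from 5.17 ± 0.745 to 14 ± 0.488 CPM, RARB, a retinoic acid receptor, from 15.2 ± 0.387 to 32.7 ± 2.23 CPM, and NR5A2 from 40.6 ± 2.21 to 75.5 ± 1.69 CPM. RARB was lower with shLITATS1-2 than with shNT (-0.49), and the hairpins differed by 1.6 (SE 0.071). Among early response coregulators, of 39 tested genes, 22 rose, 6 fell and 11 missed the threshold, with the Notch coactivators MAML3 and MAML2 at 0.97 and 0.95, the repressor PRDM1 at 0.92 and the corepressor TLE4 at -0.96. Of 23 tested genes, 10 rose, 9 fell and 4 missed the threshold among ETS, RUNX and MAF factors. ETS2 rose from 76.2 ± 1.28 to 129 ± 1.28 CPM, ETS1 fell from 39 ± 1.26 to 25.6 ± 0.124 CPM and RUNX3 fell from 16.2 ± 1.002 to 9.45 ± 0.522 CPM. With shLITATS1-2, ETS1 had a log2 fold change of 0.73 and ETS2 of -0.12, each a call in the other direction. In the KLF and SP family, of 21 tested genes, 11 rose, 6 fell and 4 missed the threshold, among them KLF12 at 0.95 and KLF5 at 0.73.

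Cohesin holds sister chromatids together and condensin compacts them before division. In the cohesin, condensin and CTCF list, of 27 tested genes, 1 rose, 21 fell and 5 missed the threshold, median -0.47. NCAPH, a condensin I subunit, had 60.4, 64 and 59.8 CPM with shNT and 28.6, 28.5 and 24.7 CPM with shLITATS1-1. The groups did not overlap, with a log2 fold change of -1.17 (SE 0.0539). NCAPD2 fell from 198 ± 9.45 to 97.6 ± 1.93 CPM and TOP2A, the topoisomerase of dividing cells, from 575 ± 22.1 to 283 ± 7.01 CPM. NCAPG fell from 64.8 ± 2.84 to 30.8 ± 0.719 CPM, but 33.1% of its exon bases are shared with LCORL on the opposite strand, so its counts are uncertain. CDCA5 and ESCO2, which establish cohesion, fell from 84.1 ± 0.68 to 43.9 ± 2.1 CPM and from 41.6 ± 2.65 to 22 ± 1.99 CPM. With shLITATS1-2 against the same controls, 23 of the 27 fell, a count without a background share here. In the direct comparison 3 members were higher and 16 lower with shLITATS1-1 than with shLITATS1-2.

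Among Polycomb genes, of 39 tested genes, 8 rose, 18 fell and 13 missed the threshold. The methyltransferase subunit genes EZH2 and SUZ12 fell from 44.3 ± 2.26 to 29.6 ± 1.71 CPM and from 117 ± 5.98 to 81.5 ± 1.67 CPM, and JARID2, which guides the complex, rose from 23.3 ± 0.36 to 42.9 ± 2.51 CPM. Among SWI/SNF, CHD and ISWI remodellers, of 41 tested genes, 13 rose, 16 fell and 12 missed the threshold. PBRM1, a subunit of the PBAF complex, had 53.7, 50.3 and 51.2 CPM with shNT and 24.9, 26.3 and 27.7 CPM with shLITATS1-1, and 52.6, 54.8 and 55.7 CPM with shLITATS1-2. The first hairpin's libraries stood below the other 6, with a log2 fold change of -0.98 (SE 0.0537) against 0.073 with the second. In DNA methylation, of 21 tested genes, 8 rose, 6 fell and 7 missed the threshold, where DNMT1, the maintenance methyltransferase, fell from 132 ± 3.92 to 88.2 ± 3.43 CPM and MBD5 rose from 9.44 ± 0.43 to 19.7 ± 1.01 CPM.

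For RNA polymerase III and tRNA processing, of 52 tested genes, 4 rose, 29 fell and 19 missed the threshold, median -0.19. BDP1, a subunit of the polymerase III initiation factor, fell from 68.3 ± 8.49 to 36.7 ± 1.4 CPM, and POLR3G from 30.6 ± 2.38 to 13.2 ± 0.324 CPM. In cleavage and polyadenylation, of 37 tested genes, 4 rose, 22 fell and 11 missed the threshold. CPSF4, a subunit that recognises the polyadenylation signal, had 25, 27.1 and 26.7 CPM with shNT and 11.8, 9.63 and 10.8 CPM with shLITATS1-1, and 25.7, 26.1 and 25.9 CPM with shLITATS1-2. The other 6 libraries lay above those of the first hairpin, at log2 fold changes of -1.29 (SE 0.0742) and -0.02. Among translation factors, of 54 tested genes, 7 rose, 29 fell and 18 missed the threshold. EIF5 fell from 433 ± 4.43 to 288 ± 7.96 CPM, and EIF4E2, a cap-binding relative of eIF4E that represses translation, rose from 37.1 ± 0.239 to 71.6 ± 2.28 CPM, with 24.2% of its exon bases shared with genes on the opposite strand, which makes its counts uncertain. Among m6A genes, of 22 tested genes, 4 rose, 10 fell and 8 missed the threshold, with the reader YTHDF3 at -0.85 and the methyltransferase METTL16 at -0.62. With shLITATS1-2 against the same controls, 6 rose and 25 fell of the polymerase III list, and 3 rose and 21 fell in cleavage and polyadenylation. Of the translation factors 11 rose and 27 fell, and of the m6A genes 3 rose and 10 fell. These shLITATS1-2 counts have no background share here.

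In 4 lists of nuclear genes for mitochondrial proteins and metabolism no member was called with a change of 2-fold. For the mitochondrial ribosome, of 81 tested genes, 4 rose, 50 fell and 27 missed the threshold, median -0.18. MRPL42 had 75.8, 71.4 and 74.2 CPM with shNT and 38.3, 43.4 and 37 CPM with shLITATS1-1. The groups were separate, at -0.90 (SE 0.0479) on the log2 scale, against 0.065 with shLITATS1-2. For import and quality control, of 43 tested genes, 1 rose, 26 fell and 16 missed the threshold. TOMM40, the import pore, fell from 301 ± 9.27 to 203 ± 3.01 CPM and LONP1, a matrix protease, from 148 ± 8.46 to 99 ± 2.58 CPM. For dynamics, biogenesis and DNA maintenance, of 44 tested genes, 8 rose, 23 fell and 13 missed the threshold. TFB2M, a mitochondrial transcription factor, fell from 40.9 ± 2.08 to 26 ± 2.06 CPM, and FIS1, a fission protein, from 51.6 ± 1.12 to 33.6 ± 0.759 CPM. For the tricarboxylic acid cycle and pyruvate entry, of 40 tested genes, 5 rose, 19 fell and 16 missed the threshold. PDK2, a kinase that inhibits pyruvate dehydrogenase, fell from 11.5 ± 1.59 to 6.15 ± 0.417 CPM, with uncertain counts because 38.6% of its exon bases are shared with SAMD14 on the opposite strand. MPC1, part of the mitochondrial pyruvate carrier, rose from 3.77 ± 0.326 to 7.52 ± 0.372 CPM. ACLY, which makes cytosolic acetyl-CoA, rose from 821 ± 10.1 to 1151 ± 34.9 CPM but was called lower than shNT with shLITATS1-2 (-0.42). With shLITATS1-2 against the same controls, 6 rose and 39 fell of the ribosome list, and 6 rose and 20 fell in import and quality control. In dynamics and DNA maintenance 9 rose and 19 fell, and in the tricarboxylic acid cycle list 7 rose and 20 fell. These shLITATS1-2 counts have no background share here. The share of fragments from the mitochondrial genome was lower with shLITATS1-1, as given above, and its part in the counts of these 4 lists was not tested.

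The next 4 lists were selected for their low share of 2-fold changes. Of 46 tested genes, 9 rose, 9 fell and 28 missed the threshold in primary cilium transport, with IFT81, a transport subunit, at 0.66. Of 24 tested genes, 6 rose, 10 fell and 8 missed the threshold in the vacuolar proton pump, and of 49 tested genes, 18 rose, 6 fell and 25 missed the threshold among coat proteins and tethers, with CREB3L2, a secretory-pathway transcription factor, at 0.77. In the BTB-Kelch and F-box adaptors of cullin ligases, of 106 tested genes, 37 rose, 35 fell and 34 missed the threshold. SKP2, which targets the inhibitor p27 for degradation, fell from 23.8 ± 1.5 to 11.8 ± 1.6 CPM, and FBXO32, an adaptor known from muscle wasting, rose from 9.63 ± 0.426 to 22.1 ± 0.421 CPM. SKP2 rose with shLITATS1-2 (0.41), and the hairpins differed by -1.43 (SE 0.0734).

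Among caspases and inflammasome genes, of 30 tested genes, 9 rose, 6 fell and 15 missed the threshold. In the list of senescence and quiescence genes, of 36 tested genes, 21 rose, 8 fell and 7 missed the threshold, median 0.29. SERPINE2, a protease inhibitor, rose from 342 ± 7.23 to 827 ± 7.85 CPM, YPEL2 from 4.52 ± 0.384 to 12.3 ± 1.04 CPM and TP53INP2, an autophagy protein, from 7.15 ± 0.743 to 15.7 ± 1.37 CPM.

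The direct comparison of the hairpins called 9439 genes (60.9%), 4684 (30.2%) higher and 4755 (30.7%) lower with shLITATS1-1, and 8.32% of tested genes differed by at least 2-fold. Named genes with calls in opposite directions against shNT and a direct difference of at least 2 on the log2 scale were AQP3, KCNF1, KCNJ16, SCN9A, SESN3, SYP and UGT1A7. Further named genes had opposite calls with a smaller direct difference, among them ALDH1A1, KRT8, KRT18, ETS1, ETS2, ADAM17 and ACLY. Not every such gene is marked where it is named above. AQP3, a channel for water and glycerol, had 13.3, 12.6 and 15.4 CPM with shNT, 3.52, 3.68 and 3.84 CPM with shLITATS1-1 and 24.9, 23.8 and 24.5 CPM with shLITATS1-2. The 3 groups did not overlap, and the direct difference was -2.73 (SE 0.0954) with adjusted p = 1.90e-37 in edgeR. KCNJ16 had 7.98, 7.11 and 6.21 CPM with shNT, 28.9, 27.4 and 28.8 CPM with shLITATS1-1 and 3.14, 3.22 and 2.4 CPM with shLITATS1-2, again without overlap, and the direct difference was 3.28 (SE 0.0983). SCN9A, a voltage-gated sodium channel, and KCNF1, a modulatory potassium channel subunit, had direct differences of 2.12 (SE 0.0875) and -2.15 (SE 0.0863). LITATS1 fell to a similar level with both hairpins, and whether these genes respond to LITATS1 or to a hairpin cannot be told apart from these libraries.

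**Figure D4:**
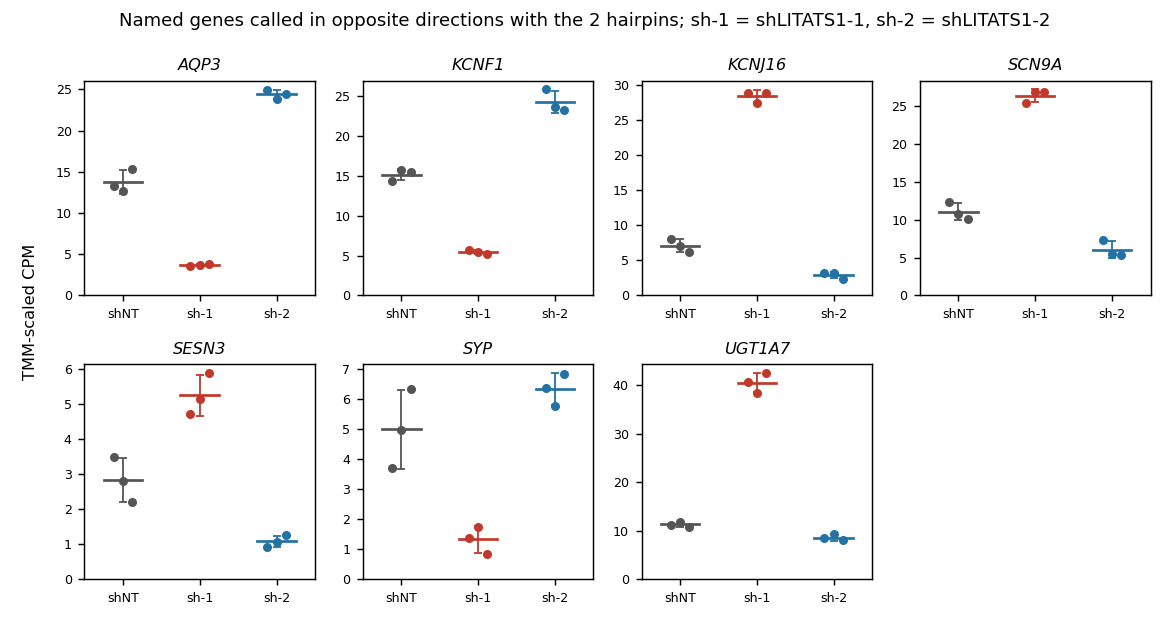
TMM-scaled CPM (linear axes from 0) of 7 named genes, by library. They were called in opposite directions with the hairpins and differed directly by at least 2 on the log2 scale. Points are libraries, lines are means and bars are SD (n = 3). AQP3, KCNF1 and SYP are lower with shLITATS1-1 and higher with shLITATS1-2 than with shNT, and the other 4 genes show the reverse.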

How the data were processed

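RNA was sequenced in 9 libraries of A549 cells on the DNBSEQ platform by an outside provider. The authors deposited raw counts of fragments per gene as 1 table for the series. The submitters' processing notes name GRCh38 as the build, HTSeq 0.12.4, STAR 2.7.5a, cutadapt 2.10 and FastQC. The strand setting of the counting is not given in the sources used here. Counter lines without a gene name were dropped. Ambiguous fragments were 10.8% of all fragments with shNT and 10.2% with shLITATS1-1, and fragments outside features 2.33% and 2.49%. Replicate pairs differed by more than sampling noise (chi-square per degree of freedom 1.47 to 2.72), so no library was taken for a copy of another.

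Genes were kept by filterByExpr with a minimum count of 10. All 9 libraries entered 1 quasi-likelihood fit in edgeR 4.0.16 (R 4.3.3) with TMM factors and 6 residual degrees of freedom. Contrasts were two-sided and called at 0.05 after Benjamini-Hochberg adjustment, and standard errors were taken from the log2 fold change and its F statistic. Shared replicate numbers did not pair the libraries (correlations are given with the replicate block). The procedure was tested on simulated data. Coordinates, gene types and exon overlaps came from GENCODE 29 on GRCh38 by gene identifier, and promoters from RefSeq on GRCh38.p14 by symbol.

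The lists and rules were chosen with earlier results of these data known. Of 92 lists, 51 were selected by their share of 2-fold changes within a block. Named genes were LITATS1, up to 6 called members of each selected list with the largest changes and at least 1 CPM in either group, the 15 largest increases and 15 largest decreases among genes not named in an earlier account, and the 10 genes that gained and the 10 that lost most CPM; 324 genes met the rule and a part of them is given. Some genes and 1 selected list are not reported here. Alternatives were DESeq2 1.42.0, other scalings, filters, thresholds and minimum changes, a replicate block, a fit of 6 libraries and leaving out each library once.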

Additional observations from a re-analysis of the deposited data

Results flagged for a closer look

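For 7 named genes the calls went in opposite directions with the 2 hairpins and the direct difference was at least 2 on the log2 scale. Other named genes had opposite calls and a smaller direct difference. Both contrasts against shNT share the shNT libraries. The direct difference compares the hairpin libraries, while its error was estimated from all 9 libraries, shNT included. Shown as shLITATS1-1 minus shLITATS1-2, the difference was -2.73 (SE 0.0954) for AQP3, -2.15 (SE 0.0863) for KCNF1 and -2.26 (SE 0.187) for SYP. It was 3.28 (SE 0.0983) for KCNJ16, 2.12 (SE 0.0875) for SCN9A, 2.28 (SE 0.186) for SESN3 and 2.25 (SE 0.0712) for UGT1A7. SYP held 3.68, 4.96 and 6.31 CPM with shNT, 1.37, 1.74 and 0.842 CPM with shLITATS1-1 and 6.37, 5.77 and 6.82 CPM with shLITATS1-2, so its shNT libraries overlapped those of the second hairpin. SESN3, a stress-induced regulator of mTORC1, held 3.48, 2.81 and 2.21 CPM, 4.73, 5.16 and 5.89 CPM and 0.917, 1.06 and 1.248 CPM in the same order, without overlap. The adjusted p of the direct difference in edgeR was 2.35e-15 for SYP and 8.86e-18 for SESN3. Groups of 3 libraries were not searched for outlying samples.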

How the results depend on the processing

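Against 4728 genes called higher and 4721 lower, the counts were 951 and 394 when a 2-fold change was also required, and 1159 and 586 with edgeR's glmTreat against 1.5-fold, both stricter by construction. DESeq2 called 4251 and 4083, library size alone 4481 and 4977, and a minimum count of 50 left 12248 genes with 4193 and 4219. Omitting each library in turn gave 4437 to 4643 higher and 4388 to 4539 lower, and 7589 of the 9449 calls kept their direction and call in all 6 omissions. With DESeq2 8332 did. The replicate block gave 4643 and 4652. Same-numbered libraries of the 2 groups had correlations of -0.170, -0.129 and -0.056 in their deviations from the group means over 10786 genes, so the numbers were not taken as pairs. Of the 324 named genes none reversed under any alternative run, 322 kept their call with DESeq2 and 323 with the block, and 156 reached 2-fold. LITATS1 kept its direction and call in each alternative. Genes under 1 CPM rest on few fragments, and a change of theirs that missed the test is not shown to be absent. The strand setting and close gene copies limit the genes named as uncertain.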

Other observations

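Some lists outside the rule had lopsided counts and are given here after their values were seen. In the nuclear pore and lamina list, of 62 tested genes, 7 rose, 43 fell and 12 missed the threshold. The median change was -0.30 on the log2 scale, with no member changed by 2-fold. It shared the lowest value of its block with the Polycomb list, as the next list did with the translation factors. Nuclear pores carry protein and RNA between nucleus and cytoplasm. In the list of deadenylation, decapping, nonsense-mediated decay and exosome genes, which take messenger RNA apart, of 62 tested genes, 14 rose, 33 fell and 15 missed the threshold, median -0.11. Among annexins and S100 proteins, which bind calcium, of 23 tested genes, 15 rose, 3 fell and 5 missed the threshold, median 0.49, 4 of them at least 2-fold. For calcium pumps and channels, of 51 tested genes, 23 rose, 6 fell and 22 missed the threshold, and for the breakdown of branched-chain amino acids, tryptophan and tyrosine, of 31 tested genes, 17 rose, 4 fell and 10 missed the threshold.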
